A study of Mus musculus with 6 samples.

Results

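The genes described here encode the respiratory chain and the ATP synthase of mitochondria, complexes I to V. They were chosen by name, as all gene names on the array that begin with Nduf, Uqcr, Cox4 to Cox8 or Atp5 and the genes Sdha, Sdhb, Sdhc and Sdhd, each read from its brightest probe. This gave 90 genes of 36163 gene names on the array, and 126 probes. Of the 90 genes, 88 were well above background on all 6 arrays and were tested. Cox8c was well above background on 0 arrays and Cox7b2 on 2 of 3 arrays in each group, so neither passed the filter. The rule for the members uses names and brightness only, although it was set with earlier results of these data known. The pattern also took in 4 assembly factors of complex I (Ndufaf1 to Ndufaf4) and 3 genes that encode no subunit (Cox4nb, Atp5s and Atp5sl). This left 83 genes counted as structural subunits, Ndufa4l2 among them by its name.

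Complexes I and II pass electrons from NADH and succinate to coenzyme Q, complex III passes them on to cytochrome c, and complex IV passes them to oxygen. Complexes I, III and IV pump protons across the inner membrane, and the return of the protons through complex V drives the synthesis of ATP. The heart depends on this chain for nearly all of its ATP, and its muscle carries special isoforms of several complex IV subunits. Subunits of all complexes but II come from both the nuclear and the mitochondrial genome, and the genes counted here are the nuclear ones.

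Tail-suspension unloads the hindlimbs of a mouse by holding its tail up and is used as a ground model of weightlessness. Total RNA was taken from cardiac muscle of sham mice, kept in the same housing without suspension, and of mice tail-suspended for 28 days. Each group had 3 arrays. The mice of all 6 arrays were male C57BL/6, with no transgene and no drug named in their labels. The labels give an age of 10 weeks at the start and also an age of 11 weeks, although the suspension lasted 28 days. Each RNA was labeled with Cy3 and hybridized to 1 array of 1 slide. Between 50.9% and 53.4% of 55681 probes were well above background per array, and no spot was saturated. Precision is limited by the number of arrays, and the labels do not say whether each array came from a separate animal. Levels are log2 processed intensities relative to the 75th percentile of the array, and a difference is the tail-suspension mean minus the sham mean. Among 20668 genes tested with limma, 9.8% were lower and 9.95% were higher past an adjusted p of 0.05. All 10 cardiomyocyte markers passed the filter and were tested, and skeletal muscle Myh1, Myh2, Myh4 and Actn3 were not above background on any array.

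The sequences shown belong to members that were lower past the threshold, 1 probe and 4 promoters. The brightest probe of Cox7a1, the subunit with the largest fall, is a 60-base oligonucleotide on the plus strand of mm9 at chr7:30970337-30970948. Because it covers 612 bases of genome, it crosses at least 1 exon junction and reads spliced RNA.
Cox7a1 probe: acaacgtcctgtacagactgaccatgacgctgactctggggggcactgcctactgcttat

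Promoters were taken from RefSeq on GRCm38.p6, as 250 bases before and 50 after each transcription start. Of the 90 members, 74 had at least 1 promoter there. In these windows, 4 motifs of regulators of mitochondrial genes were searched on both strands, GCGCATGC for NRF1, CCGGAAG for ETS factors such as GABP, AAGATGGCG for YY1 and TCAAGGTCA for the estrogen-related receptors. The windows printed run from 250 bases before to 30 after the start, with matches in capitals. Uqcr11 is shown because it held both an ETS and an NRF1 match (minus strand, chr10:80406792-80407071). Ndufaf1 (minus strand, chr2:119662805-119663084) and Ndufs8 (minus strand, chr19:3912745-3913024) held an ETS match each. Cox7a1 (plus strand, chr7:30183921-30184200) is shown because none of the 4 motifs is in its window.
Uqcr11 promoter: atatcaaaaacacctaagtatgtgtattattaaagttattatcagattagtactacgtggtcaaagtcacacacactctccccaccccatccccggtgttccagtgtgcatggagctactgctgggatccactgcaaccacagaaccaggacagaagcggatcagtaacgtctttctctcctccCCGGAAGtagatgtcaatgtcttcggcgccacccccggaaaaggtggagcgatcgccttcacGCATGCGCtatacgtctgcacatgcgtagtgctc
Ndufaf1 promoter: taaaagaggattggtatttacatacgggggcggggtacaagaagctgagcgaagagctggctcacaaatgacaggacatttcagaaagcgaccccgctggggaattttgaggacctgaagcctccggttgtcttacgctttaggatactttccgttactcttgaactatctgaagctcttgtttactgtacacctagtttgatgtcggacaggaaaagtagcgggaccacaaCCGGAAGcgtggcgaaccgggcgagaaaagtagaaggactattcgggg
Ndufs8 promoter: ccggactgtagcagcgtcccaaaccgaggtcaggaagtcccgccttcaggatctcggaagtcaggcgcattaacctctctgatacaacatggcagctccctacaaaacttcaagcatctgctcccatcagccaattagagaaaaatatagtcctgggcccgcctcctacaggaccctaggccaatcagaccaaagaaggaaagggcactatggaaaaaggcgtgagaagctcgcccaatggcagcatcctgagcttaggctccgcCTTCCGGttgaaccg
Cox7a1 promoter: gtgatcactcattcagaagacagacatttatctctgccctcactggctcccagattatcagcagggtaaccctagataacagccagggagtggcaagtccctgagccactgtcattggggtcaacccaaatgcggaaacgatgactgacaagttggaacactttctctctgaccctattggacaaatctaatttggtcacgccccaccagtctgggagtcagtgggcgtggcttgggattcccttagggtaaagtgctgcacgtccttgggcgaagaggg

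The NRF1 letters stood in the promoters of 11 of 74 members (14.9%), against 5.38% of 10998 other tested genes with a promoter and 3.05% of 27025 genes with a promoter. The ETS letters stood in 17 members (23%), against 18% of the other tested genes and 9.93% of all. The YY1 letters stood in 8 members (10.8%), against 3.16% and 1.64%, and those of the estrogen-related receptors in 2 (2.7%), against 0.309% and 0.466%. Of the members lower past the threshold, 7 had a promoter. ETS letters stood in 3 of these, all printed above, NRF1 letters in 1, and YY1 or estrogen-related receptor letters in 0. The median difference was -0.23 for the 11 members with the NRF1 letters and for the 17 with the ETS letters, and -0.18 for the 42 tested members with none of the 4 motifs. A match is a description of letters, and binding was not measured here.

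No member was higher past the threshold, and 9 were lower. These were the complex I subunits Ndufs1, Ndufs8, Ndufb2, Ndufv3 and Ndufa4l2 (the last counted there by its name), the complex I assembly factor Ndufaf1, the complex III subunits Uqcrfs1 and Uqcr11, and the complex IV subunit Cox7a1. The 9 make up 10.2% of the 88 tested members, near the 9.8% of all tested genes, so in this fit the count alone does not set the members apart. At an unadjusted p below 0.05, 28 members were lower (31.8%, against 19.3% of all tested genes) and 0 higher (against 18.4%). In other fits the share of members called lower moved to either side of that of all genes. It was 27.3% of members against 11.2% of all genes with quantile normalization and 28.4% against 12.5% with an intensity trend, but 6.82% against 9.48% with normexp background correction. With normexp, 13.6% of members and 19.4% of all genes were lower at an unadjusted p below 0.05 (limma). Each alternative fit also called 0 members higher, whereas the number called lower dropped when 1 array was left out, as it did over all genes. It was 1 member without sham replicate 1 (3.99% of all genes), 1 without sham replicate 2 (2.86%), 8 without sham replicate 3 (7.36%), 4 without tail-suspension replicate 1 (5.44%), 5 without tail-suspension replicate 2 (8.85%) and 0 without tail-suspension replicate 3 (3.43%).

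The direction of the differences was less even. Of the 88, 74 differed downward (84.1%, against 51.2% of all tested genes), by a median of -0.20, or 0.869 of the sham level. The median over all tested genes was -0.011. In 56 members all 3 tail-suspension arrays lay below all 3 sham arrays, a pattern found in 22.9% of all tested genes. The opposite pattern held for 0 members and for 21.5% of all tested genes. Values of one set of genes are read from the same 6 arrays and are not independent of each other.

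**Figure D1:**
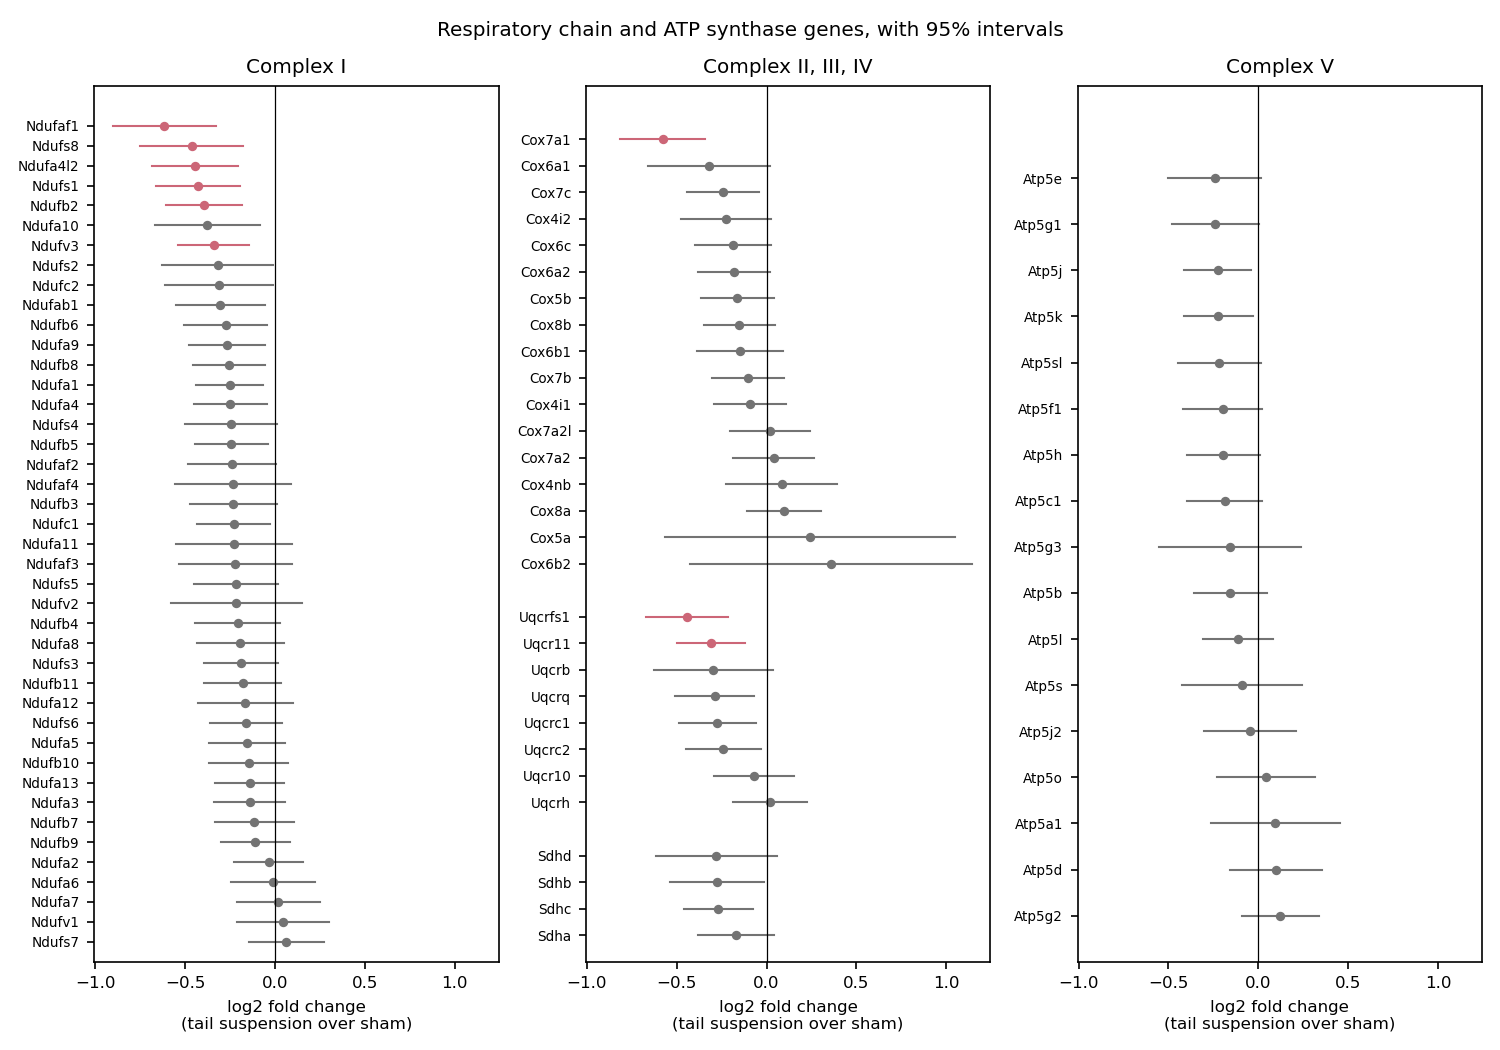
Log2 fold change (x axis, tail suspension over sham) of the 88 tested members, 1 row per gene, with 95% limma intervals, grouped by complex in 3 panels. Red marks the 9 members lower past an adjusted p of 0.05; most points lie left of 0 and only Cox6b2 and Cox5a lie above 0.2.

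Most members are among the brightest genes on the array. The processed intensity of the tested members ranged from 398 to 356347 with a median of 73905, and 73 of them were in the brightest 5% of tested genes, above 24022. The other 961 genes of that brightest 5% differed by a median of 0.083, and 40.2% of them were below 0. The 73 members in the same range differed by a median of -0.20, with 61 below 0. Tail-suspension arrays lay below all sham arrays for 48 of these 73 members and for 178 of the 961 others.

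**Figure D2:**
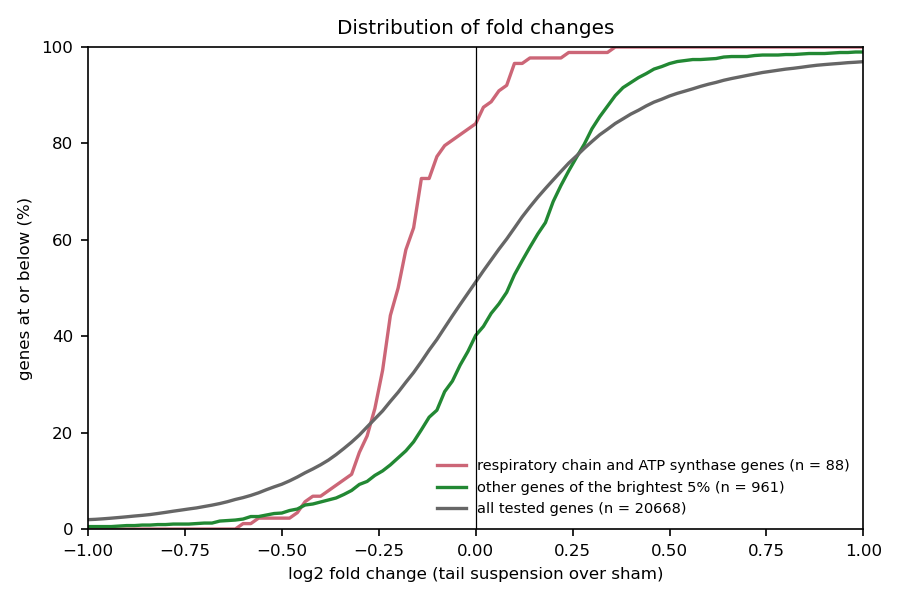
Share of genes (y axis, %) at or below each log2 fold change (x axis, tail suspension over sham) for the members, the other genes of the brightest 5% and all tested genes. The members' curve reaches 84.1% at 0, against 40.2% for the other bright genes and 51.2% for all.

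On the separate arrays, the median deviation of the 88 members from their sham means was 0.061, 0.024 and -0.072 in sham and -0.17, -0.20 and -0.17 in tail-suspension. The groups did not overlap, and sham replicate 3 was the sham array nearest to the tail-suspension arrays. The median of all tested genes stayed between -0.023 and 0.024 on every array. The other genes of the brightest 5% had medians of 0.066, 0.037 and 0.15 on the tail-suspension arrays.

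**Figure D3:**
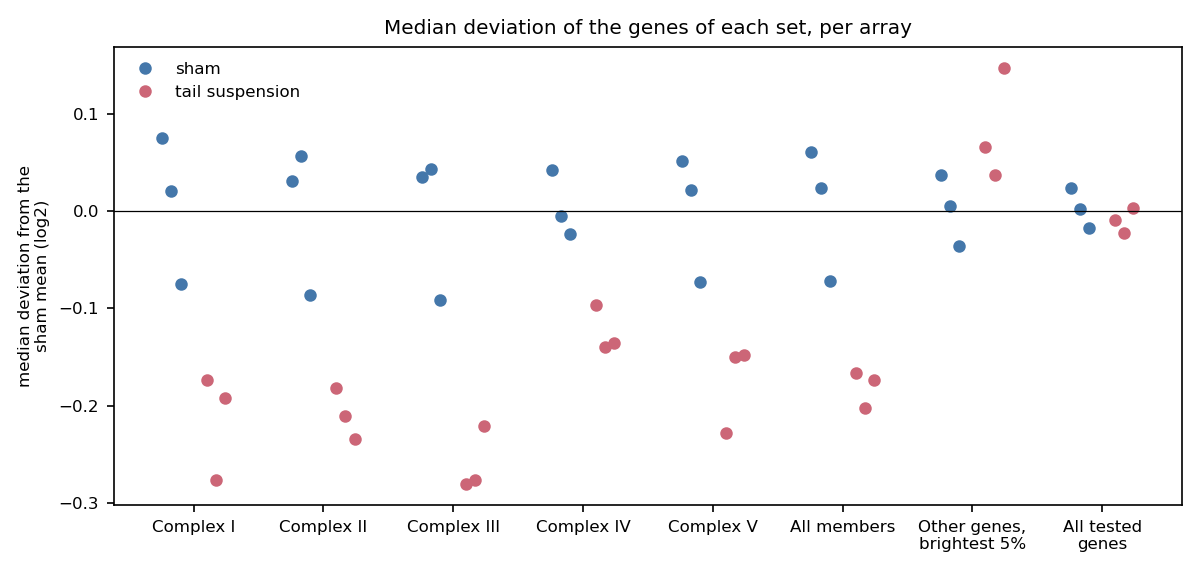
Median deviation from the sham mean (y axis, log2) over the genes of each complex, over all members, over the other genes of the brightest 5% and over all tested genes, 1 point per array. In each of the 5 complexes the 3 tail-suspension arrays lie below the 3 sham arrays.

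These levels are relative to the array. The 75th percentile intensity was 259 to 272 on the sham arrays and 291 to 326 on the tail-suspension arrays, a difference of 0.21 on the log2 scale. Before this scaling, the median log2 intensity difference was 0.012 over the members, with 45 above 0 and 43 below 0, and 0.20 over all tested genes. A fall here is therefore a fall against the rest of the array, and no amount of RNA per heart was measured. In bulk tissue, fewer cells of a type and less RNA per cell cannot be told apart. The slide held the arrays in rows, with tail-suspension replicate 1 beside all 3 sham arrays and the other tail-suspension arrays apart from them in the second row. With the row as a block, which compares tail-suspension replicate 1 with the sham arrays, the median was -0.17 and 72 of 87 members were below 0. That fit called 0 members lower (limma), and 0.751% of all genes, with 7 members (8.05%) and 9.93% of all genes lower at an unadjusted p below 0.05.

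Complex I, the largest of the complexes, had 6 of 42 tested members lower past the threshold (14.3%, against 9.8% of all tested genes). Of the 42, 39 were below 0, with a median of -0.23. The core subunits of complex I carry the flavin and the iron-sulfur clusters that move electrons, and 2 of 7 (28.6%) passed the threshold, Ndufs8 and Ndufs1. Ndufs8 (mm9 chr19:3911177-3911236) stood at 6.06, 6.06 and 5.71 in sham and 5.53, 5.49 and 5.42 in tail-suspension. It fell by 0.46 ± 0.12 (SE, limma, n = 3 per group, adjusted p = 0.0407), and sham replicate 3 lay closest to the tail-suspension arrays, without overlap. Ndufs1 (chr1:63190360-63190419), which holds iron-sulfur clusters at the entry of the electrons, stood at 8.25, 8.29 and 8.11 in sham and 7.73, 7.90 and 7.74 in tail-suspension. It fell by 0.43 ± 0.10 (SE, limma, adjusted p = 0.0285), a decrease by 25.7%, again without overlap. The core subunits Ndufv1 and Ndufs7 were at 0.046 and 0.064 and overlapped between the groups, and without sham replicate 3 Ndufv1 was at -0.047.

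The accessory subunits of complex I surround and stabilize the core. Of the 31 genes counted as such by name, Ndufa4 and Ndufa4l2 among them, 30 were below 0 and 3 passed the threshold. The share that passed, 9.68%, was near the 9.8% of all tested genes that were lower. Ndufb2 (chr6:39548336-39549425), of the membrane arm, stood at 8.26, 8.18 and 8.16 in sham and 7.90, 7.75 and 7.77 in tail-suspension. The difference was -0.39 ± 0.089 (SE, limma, adjusted p = 0.0282), and a dimmer second probe gave -0.26 with an adjusted p of 0.137. Ndufa4l2 (chr10:126954149-126954208), a relative of Ndufa4 known as a target of hypoxia-inducible factor, stood at 3.55, 3.61 and 3.70 in sham and 3.30, 3.17 and 3.06 in tail-suspension. It fell by 0.44 ± 0.10 (SE, limma, adjusted p = 0.0282), and each tail-suspension array lay below each sham array. Ndufv3 (chr17:31668209-31668268), beside the flavoprotein subunits, fell by 0.34 ± 0.083 (SE, limma, adjusted p = 0.0338). Its levels were 9.08, 8.97 and 9.01 in sham and 8.65, 8.71 and 8.68 in tail-suspension, with a smaller spread in tail-suspension. A dimmer second probe of Ndufv3 gave -0.15, and the call held under 8 of 19 alternative fits, the fewest of the 9 members. The accessory subunit nearest to 0 was Ndufa6, at 7.25, 7.10 and 7.03 in sham and 7.19, 7.03 and 7.12 in tail-suspension, a difference of -0.010 whose 95% interval ran from -0.24 to 0.22.

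All 4 complex I assembly factors were below 0, with a median of -0.24, and 1 passed the threshold (25%, against 9.8% of all tested genes). Ndufaf1 (chr2:119481208-119481267), a chaperone that helps to build the membrane arm, had the lowest difference of all members. It stood at 4.17, 4.20 and 3.95 in sham and 3.62, 3.31 and 3.54 in tail-suspension. The difference was -0.61 ± 0.12 (SE, limma, adjusted p = 0.0191), a decrease by 34.7%, and the groups were well apart. Ndufaf2, Ndufaf3 and Ndufaf4 were between -0.24 and -0.22 and did not pass, and the groups overlapped for Ndufaf3 and Ndufaf4.

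Complex II is succinate dehydrogenase, which is also an enzyme of the citric acid cycle. None of its 4 subunits passed the threshold, and 2 were lower at an unadjusted p below 0.05 (against 19.3% of all tested genes). All 4 were below 0, with a median of -0.27. Sdha, the flavin-bearing catalytic subunit and the one nearest to 0, stood at 7.31, 7.36 and 7.20 in sham and 7.17, 7.13 and 7.06 in tail-suspension. Its difference was -0.17 with a 95% interval from -0.38 to 0.041, and the groups did not overlap. Sdhb, the iron-sulfur subunit, was at -0.28, and the membrane anchors Sdhc and Sdhd were at -0.27 and -0.28.

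Complex III had 2 of 8 tested members lower past the threshold (25%, against 9.8% of all tested genes). Of the 8, 7 were below 0, with a median of -0.28. Uqcrfs1 (chr13:30632363-30632422), the Rieske iron-sulfur protein that takes electrons from coenzyme Q, stood at 7.80, 7.88 and 7.65 in sham and 7.39, 7.29 and 7.32 in tail-suspension. It fell by 0.44 ± 0.096 (SE, limma, adjusted p = 0.0247), a decrease by 26.4%, and the groups did not overlap. Uqcr11 (chr10:79865745-79865804), a small subunit whose promoter is printed above, stood at 8.90, 8.92 and 8.88 in sham and 8.62, 8.57 and 8.59 in tail-suspension. It fell by 0.31 ± 0.079 (SE, limma, adjusted p = 0.0386), with little spread in either group, and its second probe gave -0.27 with an adjusted p of 0.0560. The core proteins Uqcrc1 and Uqcrc2 were at -0.27 and -0.24 and did not pass. Uqcrh, the hinge protein near cytochrome c, was nearest to 0, at 9.08, 9.16 and 9.11 in sham and 9.18, 9.06 and 9.18 in tail-suspension. Its difference was 0.018 (95% interval -0.19 to 0.22).

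**Figure D4:**
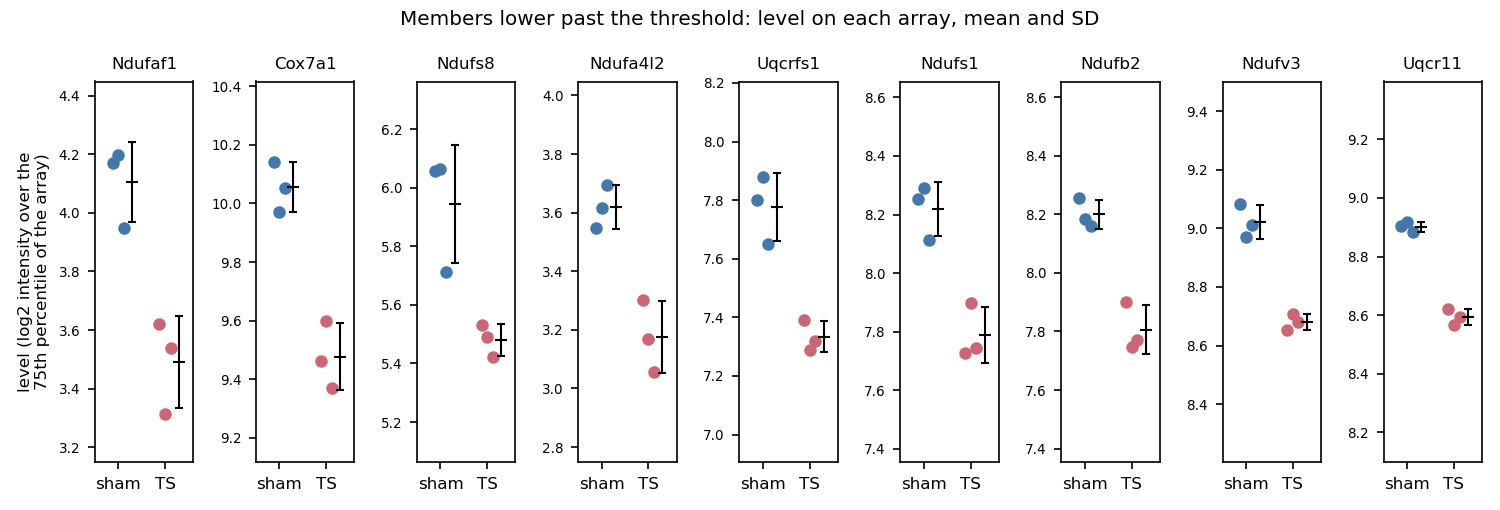
Level (y axis, log2 intensity over the 75th percentile of the array) of the 9 members lower past the threshold, 1 panel per gene with the same height of 1.3 log2 units. Points are the 3 sham and 3 tail-suspension (TS) arrays, and bars give the mean and SD; the groups do not overlap in any panel.

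Complex IV, cytochrome c oxidase, had 17 tested members, of which 11 were below 0, with a median of -0.15. Its single call (5.88% of members, against 9.8% of all tested genes) was Cox7a1, the heart and skeletal muscle isoform of subunit VIIa. Cox7a1 stood at 10.14, 9.97 and 10.05 in sham and 9.46, 9.60 and 9.37 in tail-suspension. It fell by 0.58 ± 0.10 (SE, limma, adjusted p = 0.0132), a decrease by 33%, and the groups lay far apart against their spread (SD 0.085 and 0.11, n = 3 each). The call held under 16 of 19 alternative fits, the most of the 9 members. The other genes named Cox7a lay near 0. Cox7a2, the isoform of most tissues, stood at 7.38, 7.37 and 7.35 in sham and 7.52, 7.28 and 7.42 in tail-suspension, a difference of 0.040. Cox7a2l, a relative named after Cox7a2, stood at 7.66, 7.62 and 7.47 in sham and 7.64, 7.54 and 7.63 in tail-suspension. Its difference was 0.019, and its other probes gave 0.063 and 0.0018. Both Cox7a2 and Cox7a2l overlapped between the groups, and their signs turned under quantile normalization (-0.066 and -0.091) and with the authors' values (-0.058 and -0.074).

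The ratio of isoforms was compared within each array for 9 pairs, by the exact permutation test over 6 arrays (two-sided, Benjamini-Hochberg over the 9 pairs). With 3 arrays against 3 the smallest p is 0.1, which gave an adjusted p of 0.225, so no pair could pass. Relative to the sham mean, the log2 ratio of Cox7a1 to Cox7a2 was 0.073, -0.084 and 0.011 in sham and -0.75, -0.37 and -0.74 in tail-suspension. The difference of -0.62 (exact permutation p = 0.1) was the largest of the pairs, and the groups did not overlap.

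For subunit VIII the muscle isoform was below 0 and the other isoform above 0. Cox8b, the heart and muscle isoform, stood at 9.41, 9.30 and 9.33 in sham and 9.23, 9.15 and 9.21 in tail-suspension, a difference of -0.15 (adjusted p = 0.229, limma). Cox8a, the isoform of most tissues, stood at 7.78, 7.74 and 7.70 in sham and 7.88, 7.75 and 7.88 in tail-suspension, a difference of 0.098 (adjusted p = 0.444, limma). Neither gene passed on its own, and Cox8a's second probe gave 0.044. Their ratio on the arrays was 0.018, -0.038 and 0.020 in sham and -0.26, -0.21 and -0.27 in tail-suspension, a difference of -0.25 (exact permutation p = 0.1) without overlap.

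For subunit VIa both isoforms were below 0. Cox6a2, its heart isoform, stood at 10.40, 10.35 and 10.34 in sham and 10.16, 10.26 and 10.13 in tail-suspension, a difference of -0.18 (adjusted p = 0.164, limma). Cox6a1, the isoform of most tissues, stood at 8.38, 8.40 and 8.28 in sham and 8.26, 7.75 and 8.09 in tail-suspension, a difference of -0.32 (adjusted p = 0.148, limma) to which tail-suspension replicate 2 gave the lowest value. The ratio of Cox6a2 to Cox6a1 differed by 0.14 (exact permutation p = 0.8), and the groups overlapped.

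For subunit IV, Cox4i1, the main isoform, stood at 9.73, 9.67 and 9.77 in sham and 9.63, 9.57 and 9.68 in tail-suspension. Its difference was -0.094 (95% interval -0.29 to 0.11), and the sign turned under quantile normalization (0.025) and with the authors' values (0.047). Cox4i2, an isoform of lung known to respond to low oxygen, stood at 1.32, 1.35 and 1.44 in sham and 1.27, 1.19 and 0.98 in tail-suspension, a difference of -0.23 (adjusted p = 0.168, limma). Their ratio differed by 0.13 (exact permutation p = 0.3) and overlapped between the groups. Cox6b1 stood at 6.37, 6.34 and 6.12 in sham and 6.16, 6.10 and 6.12 in tail-suspension, and overlapped. Cox6b2, a testis isoform, stood at 0.24, 0.44 and 0.40 in sham and 0.49, 1.52 and 0.15 in tail-suspension. Its mean difference of 0.36 came from tail-suspension replicate 2 and was -0.042 without it, and the ratio of Cox6b1 to Cox6b2 overlapped (exact permutation p = 0.4). Cox7b stood at 8.65, 8.59 and 8.55 in sham and 8.57, 8.46 and 8.46 in tail-suspension, and its relative Cox7b2 did not pass the filter.

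One more member of complex IV rested on a single spot. Cox5a stood at 9.55, 8.23 and 9.46 in sham and 9.34, 9.23 and 9.38 in tail-suspension. Sham replicate 2 was far below the other arrays, and the difference of 0.24 had an SE of 0.34 and was -0.19 without that array. The brightest probe named Cox5b (-0.16) was designed on a clone marked as chimeric and lies on chromosome 15, whereas the gene is on chromosome 1. Its other probe, at chr1:36750171-36750230, gave -0.20 (adjusted p = 0.163, limma), also without overlap.

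Ndufa4 was long counted with complex I and is now placed in complex IV. It stood at 7.64, 7.69 and 7.64 in sham and 7.48, 7.34 and 7.40 in tail-suspension, and the groups did not overlap. The difference was -0.25 ± 0.085 (SE, limma, adjusted p = 0.0831), and it passed the threshold under 3 alternatives, quantile normalization, the authors' values and the intensity trend. The ratio of Ndufa4 to Ndufa4l2 was 0.056, 0.036 and -0.092 in sham and 0.15, 0.13 and 0.31 in tail-suspension, a difference of 0.20 (exact permutation p = 0.1).

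None of the 17 members named Atp5 passed the threshold, and 2 were lower at an unadjusted p below 0.05 (against 19.3% of all tested genes). The median was -0.16 and 13 were below 0. Of the catalytic head, Atp5b, which forms the catalytic sites, was at -0.16 and Atp5c1, of the central stalk, at -0.19. Atp5a1, also of the head, and Atp5d, also of the central stalk, were at 0.096 and 0.099 and overlapped between the groups. The ring of c subunits that turns in the membrane is encoded by Atp5g1, Atp5g2 and Atp5g3, which make the same mature protein with different import peptides. Atp5g1 stood at 9.63, 9.36 and 9.55 in sham and 9.20, 9.29 and 9.33 in tail-suspension, a difference of -0.24 (adjusted p = 0.136, limma) without overlap. Atp5g2 stood at 8.78, 8.71 and 8.61 in sham and 8.83, 8.76 and 8.88 in tail-suspension, a difference of 0.12 (adjusted p = 0.355, limma), and its second probe gave 0.038. Atp5g3 stood at 9.07, 9.01 and 8.58 in sham and 8.58, 8.95 and 8.65 in tail-suspension, and overlapped. The ratio of Atp5g1 to Atp5g2 was 0.036, -0.16 and 0.13 in sham and -0.44, -0.29 and -0.36 in tail-suspension, a difference of -0.36 (exact permutation p = 0.1), whereas that of Atp5g1 to Atp5g3 differed by -0.081 and overlapped (exact permutation p = 0.8). Atp5o, of the peripheral stalk, was nearest to 0 and stood at 7.42, 7.16 and 7.06 in sham and 7.26, 7.28 and 7.23 in tail-suspension. Its difference of 0.041 had a 95% interval from -0.23 to 0.31, and its sign turned under quantile normalization and with the authors' values (-0.070 each).

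For the 79 tested members that did not pass, the intervals limit the size of any change. In 71 of them the 95% interval lay within 1.5-fold either way, and in 19 it left out 0. Over the 79 the bounds ran from -0.67 to 1.14. The median SE was 0.094 over the members and 0.12 over all tested genes. In 26 members with more than 1 tested probe, the probes had the same sign in 25, and their median gap was 0.067. The exception was Ndufb11.

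Partners of the chain were counted in the same fit from lists of genes chosen by function, to be read against the 9.8% of all tested genes that were lower and the 9.95% that were higher. Of 12 probes named for mitochondrial DNA genes, none passed in either direction, 11 were below 0 and the median was -0.14. ND6, which is encoded on the strand opposite to the other subunit genes, was at 0.85 (adjusted p = 0.0787, limma), and its level was below the 75th percentile on every array. The probes for COX2, COX3, ND3, ND4L and ATP8 carry coordinates on chromosome 1, so they cannot be told apart from a nuclear copy.

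Of 12 genes of coenzyme Q synthesis, 3 fell and 0 rose, all 12 were below 0, and the median was -0.34. Those that fell were Coq5 by 0.52 and Coq6 by 0.42, enzymes that modify the ring of coenzyme Q, and Coq10a by 0.35. Of 17 assembly factors of complexes II to V, 5 fell and 0 rose, with a median of -0.26. The 4 largest falls were Sco1 by 0.86 and Cox11 by 0.62, which bring copper to complex IV, Sdhaf2 by 0.78, which places the flavin in Sdha, and Tmem70 by 0.49, which helps to build the ATP synthase. Of 14 genes of the citric acid cycle, 2 fell and 0 rose, all 14 were below 0, and the median was -0.28. These were Sucla2, a subunit of succinyl-CoA ligase, which fell by 0.58, and Dld, shared by several dehydrogenase complexes, which fell by 0.46.

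Of 15 electron carriers and exchange proteins, 2 fell and 1 rose, with a median of -0.13. Cytochrome c (Cycs) fell by 0.45 and Etfdh, which feeds electrons from fatty acid oxidation to coenzyme Q, by 0.59 (adjusted p = 0.0497, limma), while the uncoupling protein gene Ucp2 rose by 0.64. Of 15 regulators of mitochondrial genes, 2 fell and 0 rose, with a median of -0.090. Tfam, which packs and transcribes mitochondrial DNA, fell by 0.50, with levels of 3.32, 3.42 and 3.09 in sham and 2.84, 2.71 and 2.79 in tail-suspension. Ppargc1b, a coactivator, fell by 0.58. Its relative Ppargc1a was at 0.39 and Nrf1, the factor of the NRF1 motif, at 0.34 (adjusted p = 0.0884 and 0.0624, limma), neither past the threshold, with all 3 tail-suspension arrays above all 3 sham arrays for both.

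**Figure D5:**
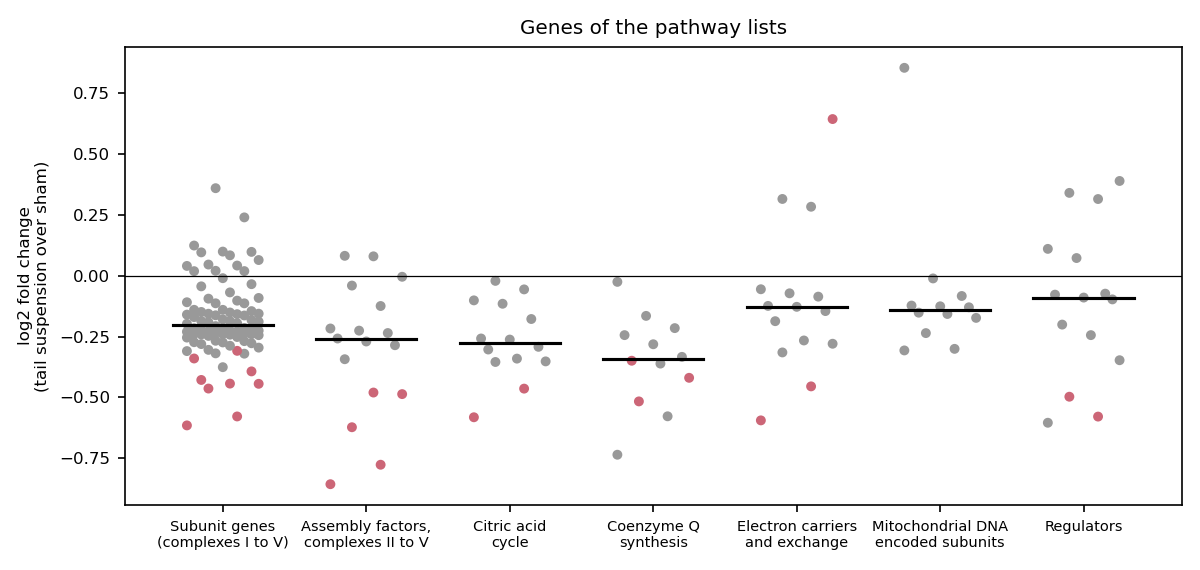
Log2 fold change (y axis, tail suspension over sham) of the tested genes of complexes I to V and of 6 lists of partner genes, 1 point per gene, red where the adjusted p was below 0.05, with a black bar at the median. All genes of coenzyme Q synthesis and of the citric acid cycle lie below 0, and Ucp2 is the single gene past the threshold above 0.

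Markers of the cell types of the heart were counted too, to be read against 9.8% of all tested genes lower and 9.95% higher. Of 10 cardiomyocyte markers, 9 were below 0 with a median of -0.12, 1 of them (Actc1, cardiac actin) past the threshold. Their summed level was 12.69 to 12.80 on the sham arrays and 12.57 to 12.62 on the tail-suspension arrays. Of 6 endothelial markers, 3 fell, and their summed level was 5.61 to 5.69 in sham and 5.18 to 5.33 in tail-suspension. Of 5 tested neutrophil markers, 3 rose and 1 was below 0. The summed level of the neutrophil markers was 7.42 to 7.65 in sham and 7.94 to 8.10 in tail-suspension. Of 4 tested erythroid markers, 1 fell and all were below 0, with a summed level of 8.96 to 9.67 in sham and 6.96 to 8.63 in tail-suspension. None of 5 tested macrophage markers passed, with a median of 0.59 and summed levels that overlapped (5.05 to 5.48 and 5.22 to 5.86). Of 6 fibroblast markers, 1 fell (Col3a1, a collagen), 4 were below 0 and the median was -0.64, with summed levels of 8.35 to 8.44 and 8.31 to 8.69. The 2 tested adipocyte markers were above 0 and did not pass, with summed levels of 5.18 to 5.47 and 5.56 to 5.65, and Lep and Ucp1 were not above background. Of the skeletal muscle markers, Acta1 and Tnnt3 were tested and did not pass, with summed levels of 4.35 to 6.30 and 3.72 to 4.81. The part of these cell types in the differences of the members was not tested.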

How the data were processed

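The authors deposited the Agilent Feature Extraction 10.7.1.1 output of 6 one-color arrays, which gives each spot a background-corrected processed intensity. They also deposited a table of log2 values, whose columns correlated above 0.999 with the log2 processed intensity and, once sorted, were at most 0.117 apart, as after quantile normalization. No normalization is named in the sources used here. Here, control spots and outlier spots were dropped, replicate spots averaged, and each array's 75th percentile was subtracted on the log2 scale. Ndufa12 has a value on 5 arrays, since its spot on sham replicate 2 was an outlier. A probe entered limma 3.58.1 (R 4.3.3, lmFit and eBayes without covariates) if all arrays of either group flagged it as well above background. This left 28032 probes, over which p-values were adjusted by Benjamini-Hochberg at a threshold of 0.05, and the fit was tested on simulated data. A gene was read from its brightest probe. A summed level is the log2 of the sum over all markers of a list that are on the array, on the scale relative to the percentile. Isoform ratios were tested with scipy 1.17.1. The members and lists were chosen with earlier results of these data known.

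Members given with every array value were up to 5 per complex and direction past the threshold, the isoform pairs, and the member nearest 0 per complex. Of the partner lists, up to 4 genes past the threshold were named per list. Ndufv3, Cox5a, Cox5b, Ndufb11, ND6, Ppargc1a, Nrf1, Actc1, Col3a1 and members given with a difference only were named after their values were seen. All 90 names matched RefSeq for GRCm38.p6 (4 by a synonym), and 89 brightest probes lay on the gene's chromosome. Array coordinates are on mm9. The alternatives covered background correction (normexp, offset 50), scaling (quantile, percentile over detected probes, the authors' log2 values), filters on dim probes and outlier spots, the test (the methods' t-test, weights per array, robust eBayes with an intensity trend), blocks for replicate number or slide row, leaving out each array, averaging a gene's probes, a 2-fold minimum and structural subunits only.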

Additional observations from a re-analysis of the deposited data

How the results depend on the processing

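All 19 alternative fits over the members kept a negative median, from -0.15 (normexp background correction) to -0.23, and called 0 members higher. The number of members lower past the threshold was 9. It was 24 with quantile normalization (27.3% of members, against 11.2% of all genes) and 22 with the authors' log2 values (25% against 11.1%). It was 25 with an intensity trend and robust eBayes (28.4% against 12.5%) and 24 with array weights (27.3% against 16.4%). With no filter on dim probes it was 0, and 1.68% of all genes were called lower (limma). In that fit 24 members were lower at an unadjusted p below 0.05 (26.7%, against 10.8% of all genes, limma). A 2-fold minimum left 0, since no member fell by that much. On the log2 scale, 1.95% of all tested genes and 0.52% of the other genes of the brightest 5% were at -1 or lower. The slide row as a block left 0, with 0.751% of all genes called lower. Leaving out 1 array at a time gave 0 to 8 calls. With normexp 6 of the 9 members kept their call, and with quantile normalization, array weights or the intensity trend all 9 did. Cox7a1 kept its call under 16 of the 19 fits, Ndufaf1 under 13 and the other 7 under 8 to 12.

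The replicate numbers did not pair the arrays, since the deviations of same-numbered arrays correlated at -0.020, -0.018 and 0.050. With the replicate block 2 members were lower past the threshold (2.27%, against 5.27% of all genes). Signs turned under at least 1 fit for 16 members, none of them past the threshold. Besides Cox5a and Ndufv1 (each without 1 array) and 7 members given by their values here, these were Atp5a1, Atp5d, Atp5j2, Atp5s, Cox4nb, Ndufa2 and Ndufa7. Ndufa6 was at 0.048 with normexp, 0.0089 with array weights and 0.065 with the slide row as a block. Quantile normalization gave 0.025 for Cox4i1, -0.066 for Cox7a2, -0.091 for Cox7a2l and -0.070 for Atp5o, and the authors' values gave 0.047, -0.058, -0.074 and -0.070 for the same genes. Over the fits without 1 array, the range was -0.058 to 0.049 for Ndufa6, -0.039 to 0.057 for Cox7a2l, -0.017 to 0.10 for Cox7a2, -0.0041 to 0.060 for Uqcrh, -0.036 to 0.15 for Atp5o and -0.042 to 0.64 for Cox6b2. The cause of these shifts was not tested. The 88 tested members were well above background on every array, whereas Cox7b2 and Cox8c did not pass the filter of the main fit.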
